A study of Mus musculus with 4 samples.

Results

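The 45 genes described here make up the machinery of DNA replication: the factors that license origins, the MCM helicase and its activators, the polymerases and their clamp, the enzymes that supply deoxynucleotides, and the regulators of entry into S phase. They were taken as a list of gene symbols, and all 45 were found among the 15009 genes of the PDGFRα+ table, the 14208 genes of the CD137+ table and the 14679 genes of the between-type table. All 45 matched a protein-coding gene of the same symbol in the GENCODE annotation of the mouse genome (GRCm38), spread over 15 chromosomes. The cells were adipocyte progenitors of C57BL/6 mice, sorted with magnetic beads for PDGFRα (also called CD140 in the labels) or for CD137 from the fat depots given as SAT or VAT, and all had been given an adipogenic cocktail before treatment. Each kind was treated with 1 µM dexamethasone (DEX), a synthetic glucocorticoid, or with PBS. The labels give neither the depot of each kind of cell, nor the age or sex of the mice, nor the composition of the cocktail.

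The labels name 4 samples, 1 per group, while the 3 deposited tables hold 6 columns with 6 different sets of values. The columns are kept apart here and each is called a library. Columns of 1 label may come from separate cultures or be runs of 1 sample, which neither labels nor files state, and a column that carries the wrong label cannot be told apart from these. PDGFRα+ DEX-T and CD137+ DEX-T name the libraries labelled DEX in the treatment tables, where each stands beside PBS of the same cell type. PDGFRα+ DEX-B and CD137+ DEX-B name the libraries labelled DEX in the table that sets the cell types against each other. The titles of the deposited tables also number the columns: PDGFRα+ DEX-T 1, PDGFRα+ DEX-B 2 and PDGFRα+ PBS 2, and CD137+ DEX-T 1, CD137+ DEX-B 2 and CD137+ PBS 1. What the numbers stand for is not stated. With 1 sample per group in the labels, no replicate error was derived and no test was made, and every value below describes single libraries. Levels are FPKM (sequenced fragments per unit of transcript length and library size), which allow levels of different genes to be set side by side. Differences are of log2(FPKM + 1), shifted so that genes reaching 1 FPKM on both sides have a median difference of 0. A gene is called higher or lower when it differed at least 2-fold on that scale and reached 1 FPKM in the higher library. The scale understates differences of genes with low values. The 3 tables were normalized separately, so any level set across tables depends on that scaling.

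Replication starts when the origin recognition complex, Cdc6 and Cdt1 load the ring of Mcm2 to Mcm7 onto DNA during G1 phase. At S phase the ring is turned into an active helicase by Cdc45 and the GINS complex, primase and DNA polymerase alpha lay down primers, and polymerases delta and epsilon extend them on the clamp Pcna. Most of these genes are switched on together by E2F transcription factors once the retinoblastoma proteins are inactivated, and they fall when cells leave the cell cycle. Cultured preadipocytes can pass through rounds of division after an adipogenic cocktail and stop dividing as they differentiate.

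The labels were checked before the results. Tsc22d3, a direct glucocorticoid target, stood at 30.2 FPKM in PDGFRα+ DEX-T, 122 in PDGFRα+ DEX-B and 113 in PDGFRα+ PBS, and at 38.5 in CD137+ DEX-T, 28.7 in CD137+ DEX-B and 76.1 in CD137+ PBS. Zbtb16, another gene that glucocorticoids induce, stood at 3.69 FPKM in PDGFRα+ DEX-T, 21.9 in PDGFRα+ DEX-B and 24.2 in PDGFRα+ PBS, and at 19.2 in CD137+ DEX-T, 5.60 in CD137+ DEX-B and 20.9 in CD137+ PBS. Neither gene was called higher over PBS in any library labelled DEX. Tsc22d3 was called lower than PBS in PDGFRα+ DEX-T (-2.11), CD137+ DEX-T (-1.02) and CD137+ DEX-B (-1.51). Zbtb16 was called lower in PDGFRα+ DEX-T (-2.66) and CD137+ DEX-B (-1.86). A direction drawn from that label below thus describes the labelled library and not a shown response to the drug. The sorting marker Pdgfra ranged between 57.9 FPKM in PDGFRα+ DEX-T and 164 in CD137+ PBS. Tnfrsf9, which encodes CD137, reached 4.81 FPKM in PDGFRα+ DEX-B, was 0.161 in CD137+ DEX-B, and is not listed in the CD137+ treatment table. The libraries held 11971 to 12465 genes at 1 FPKM or more, and their summed FPKM ran between 430997 and 449283. Read depth is unknown.

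The replication genes were high in some libraries labelled DEX and close to PBS in another. The median of the 45 genes was 9.25 FPKM in PDGFRα+ DEX-T, 3.84 in PDGFRα+ DEX-B and 3.47 in PDGFRα+ PBS. It was 7.23 FPKM in CD137+ DEX-T, 12.1 in CD137+ DEX-B and 4.85 in CD137+ PBS. Each library labelled DEX had a higher median than PBS of its cell type, but the 2 libraries that share the label PDGFRα+ DEX stood far apart, and DEX-B lay next to PBS. Of the 45 genes, 41 were higher in both PDGFRα+ DEX-T and CD137+ DEX-B than in any of the other 4 libraries. After rescaling, in which the median deviation of each library from the gene means was taken out over 10781 genes, this held for 38 genes. In 33 genes PDGFRα+ DEX-B and PDGFRα+ PBS were both below the other 4 libraries, and in 32 after rescaling. CD137+ DEX-B held the highest value of 41 genes, and PDGFRα+ DEX-T that of Gins4, Rfc3, Rpa1 and Rrm1. At 10 FPKM or more stood 20 of the 45 genes in PDGFRα+ DEX-T, 9 in PDGFRα+ DEX-B, 8 in PDGFRα+ PBS, 14 in CD137+ DEX-T, 28 in CD137+ DEX-B and 10 in CD137+ PBS. For these orders and levels the share of all genes was not computed. How particular they are to replication genes is therefore not shown. In bulk RNA a larger share of cycling cells and more replication mRNA per cell cannot be told apart.

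**Figure D1:**
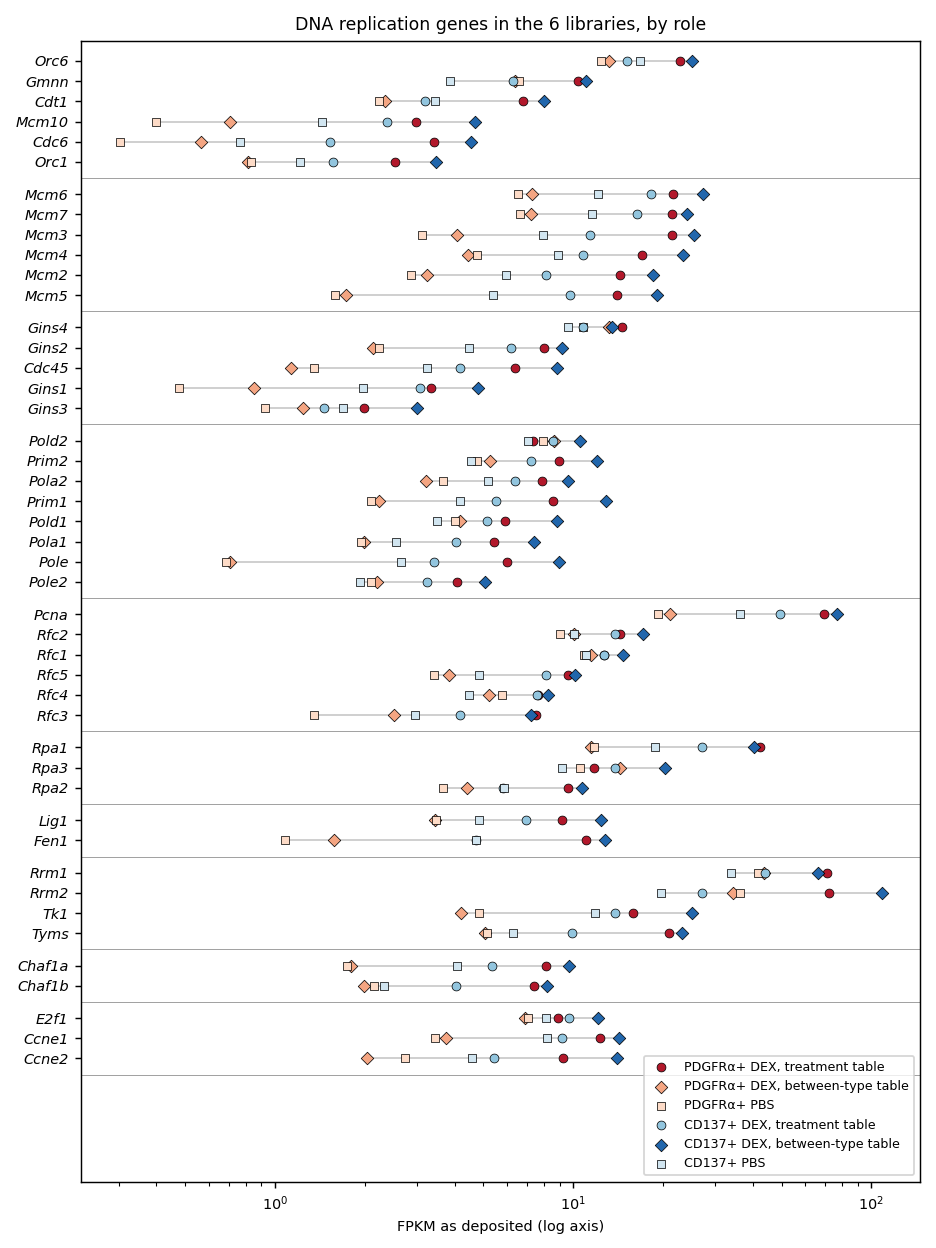
FPKM as deposited (log axis) of each of the 45 replication genes, 1 point per library, with the genes down the page in the order of their roles. CD137+ DEX-B (between-type table) is the rightmost point for 41 genes, and PDGFRα+ PBS and PDGFRα+ DEX-B lie furthest left for most. The points of Rfc1, Pold2, Gins4 and E2f1 lie closest together, with spreads between 1.36-fold for Rfc1 and 1.75-fold for E2f1.

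Set against PBS in its own table, PDGFRα+ DEX-T had 25 of 45 replication genes at least 2-fold higher and 0 lower, where 9.38% of all 13181 genes measured there were called higher and 11.7% lower. The median difference of the 45 genes was 1.17 log2 units, with the median of all genes at 0, and the values ran between -0.34 for Pold2 and 2.30 for Fen1. In the CD137+ treatment table, DEX-T against PBS, 0 of 45 were called in either direction, where 0.406% of genes were called higher and 0.658% lower. The median of the 45 genes there was 0.34, and 40 of them lay above 0. In the between-type table, PDGFRα+ DEX-B against CD137+ DEX-B, 29 of 45 were called lower and 0 higher, where 7.31% of genes were called lower and 12.6% higher. The median was -1.39, and the only gene above 0 was the GINS subunit Gins4, at 0.18.

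Further comparisons cross the tables, and each of the first pair shares its PBS library with the treatment table of that cell type. PDGFRα+ DEX-B against PDGFRα+ PBS had 0 of 40 measured replication genes called in either direction, where 0.0562% of all genes were called higher and 0.112% lower, and the median was 0.03. CD137+ DEX-B against CD137+ PBS had 18 of 45 called higher and 0 lower, where 4.76% of all genes were called higher and 7.28% lower, and the median was 0.94. Without centring 29 of the 45 were called higher in that comparison, where 6.32% of all genes were. In both cell types the DEX library with the same number in the table title as its PBS library had 0 replication genes called. The calls were in the library with the other number. Few of all genes were called in the pairs with the same number either. In PDGFRα+ cells 0.0562% were higher and 0.112% lower, and in CD137+ cells 0.406% were higher and 0.658% lower. The counts of 0 are thus not particular to replication genes, whose medians there were 0.03 in PDGFRα+ and 0.34 in CD137+ cells. Libraries of 1 label also differed from each other: 23 of the 45 genes were higher in PDGFRα+ DEX-T than in PDGFRα+ DEX-B, where 8.61% of all genes were. In CD137+ DEX-T 9 of the 45 genes were lower and 0 higher than in CD137+ DEX-B, where 3.17% of all genes were lower and 6.17% higher. In PDGFRα+ cells the libraries of 1 label were thus about as far apart in these genes as DEX-T was from PBS.

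**Figure D2:**
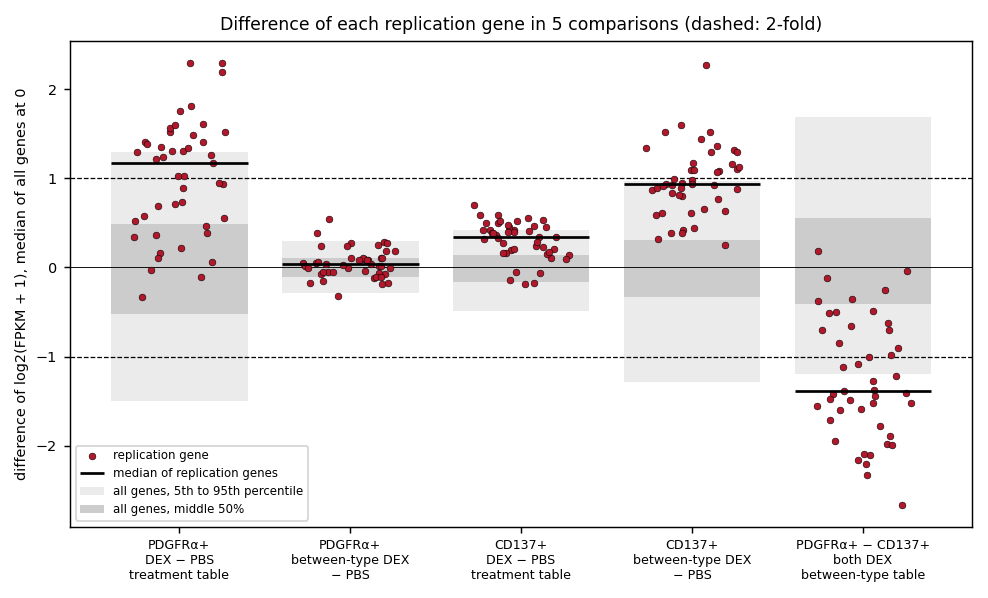
Difference of log2(FPKM + 1) of each of the 45 replication genes in 5 comparisons, with the median of all genes at 0 and dashed lines at 2-fold. In PDGFRα+ DEX-T over PBS 25 genes lie above the upper line, in PDGFRα+ DEX-B over PBS 0 of 40 do, and in PDGFRα+ DEX-B over CD137+ DEX-B 29 genes lie below the lower line.

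RefSeq promoter windows of 300 bases, 250 before to 50 after the start site on GRCm38.p6, were given for 36 of the 45 genes. They were searched on both strands for the E2F words TTTCCCGC, TTTGGCGC, TTTCGCGC and TTTGCCGC. A word was found in 13 of the 36 genes (36.1%), against 4.39% of 10981 other listed genes with a window and 2.605% of all 27025 genes in the RefSeq table. The 13 genes held 19 words, of which 12 began after a point 100 bases before the start site. Shown are the 4 genes with a word that had the highest differences in PDGFRα+ DEX-T over PBS, and Pold2, which had none and the lowest difference. Capitals mark the E2F words on either strand. Mcm5 lies at chr8:75109259-75109558 on the plus strand, Mcm3 at chr1:20820263-20820562 on the minus strand, Rfc3 at chr5:151651159-151651458 on the minus strand, Cdc6 at chr11:98907901-98908200 on the plus strand and Pold2 at chr11:5878207-5878506 on the minus strand.
Mcm5: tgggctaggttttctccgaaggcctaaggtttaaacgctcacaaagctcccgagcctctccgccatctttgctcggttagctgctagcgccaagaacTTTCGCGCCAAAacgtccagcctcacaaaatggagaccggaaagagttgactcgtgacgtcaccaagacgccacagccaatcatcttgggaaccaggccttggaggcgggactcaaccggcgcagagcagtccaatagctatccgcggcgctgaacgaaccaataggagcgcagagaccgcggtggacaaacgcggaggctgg
Mcm3: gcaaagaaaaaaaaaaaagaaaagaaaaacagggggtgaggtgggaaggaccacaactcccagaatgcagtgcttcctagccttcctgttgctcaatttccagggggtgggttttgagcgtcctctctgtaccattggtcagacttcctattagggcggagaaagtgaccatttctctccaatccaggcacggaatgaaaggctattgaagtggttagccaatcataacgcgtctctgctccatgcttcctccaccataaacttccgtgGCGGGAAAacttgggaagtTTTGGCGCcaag
Rfc3: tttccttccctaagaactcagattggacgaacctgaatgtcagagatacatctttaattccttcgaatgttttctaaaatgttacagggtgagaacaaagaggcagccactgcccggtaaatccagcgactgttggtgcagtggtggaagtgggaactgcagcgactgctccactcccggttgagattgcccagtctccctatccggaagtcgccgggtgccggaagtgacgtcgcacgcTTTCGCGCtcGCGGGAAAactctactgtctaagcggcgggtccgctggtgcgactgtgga
Cdc6: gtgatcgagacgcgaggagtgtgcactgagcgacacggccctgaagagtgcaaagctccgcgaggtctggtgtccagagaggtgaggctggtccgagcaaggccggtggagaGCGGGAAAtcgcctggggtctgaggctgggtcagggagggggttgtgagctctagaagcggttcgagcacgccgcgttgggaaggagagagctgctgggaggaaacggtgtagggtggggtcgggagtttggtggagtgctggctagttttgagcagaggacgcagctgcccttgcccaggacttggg
Pold2: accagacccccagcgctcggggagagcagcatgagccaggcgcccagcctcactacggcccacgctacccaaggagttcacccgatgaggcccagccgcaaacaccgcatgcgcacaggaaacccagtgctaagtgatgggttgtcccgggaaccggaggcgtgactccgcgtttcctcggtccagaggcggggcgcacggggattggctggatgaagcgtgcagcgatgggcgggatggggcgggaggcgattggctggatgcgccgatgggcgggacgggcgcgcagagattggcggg

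In Mcm5 the capitals are a pair of overlapping words on opposite strands, between -153 and -142 with the start site as position 0. The last 50 bases of that window are not part of a transcript in the GENCODE annotation, so the start used there is that of RefSeq alone. The Cdc6 window lies wholly within the GENCODE gene, so its word is not upstream of the gene start annotated there. In Mcm3 both words lie after the start site, and in Rfc3 they lie just before it and at it. Genes with and without a word had overlapping differences. In PDGFRα+ DEX-T over PBS 7 of 13 genes with a word were called higher (median 1.02), against 13 of 23 without one (median 1.17). Of all genes 9.38% were called higher there. In PDGFRα+ DEX-B against CD137+ DEX-B 10 of 13 genes with a word were called lower (median -1.27), against 14 of 23 without one (median -1.42). Of all genes 7.31% were called lower in that comparison. Fen1 and Pcna, with differences of 2.30 and 1.56, had none of these letters in their windows, while Pold1, at 0.22, had a word. A missing word says only that these letters are not in the window.

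Origin licensing was described by 6 genes, of which Cdc6, Cdt1 and Mcm10 were called higher in PDGFRα+ DEX-T over PBS, 0 in CD137+ DEX-T over PBS, and Cdc6, Cdt1, Mcm10 and Orc1 lower in PDGFRα+ DEX-B than in CD137+ DEX-B. Cdc6, the ATPase that loads the MCM ring with Cdt1, stood at 3.42 FPKM in PDGFRα+ DEX-T, 0.565 in PDGFRα+ DEX-B and 0.301 in PDGFRα+ PBS, and at 1.53 in CD137+ DEX-T, 4.53 in CD137+ DEX-B and 0.763 in CD137+ PBS. It was low everywhere, with the widest relative range of all 45 genes, 15.1-fold between its highest and lowest library. Its difference from PBS was 1.52 log2 units in PDGFRα+ DEX-T, 0.47 in CD137+ DEX-T and 1.52 in CD137+ DEX-B. It lies at chr11:98907801-98923940 on the plus strand. Its RefSeq promoter window, which lies inside these bounds, held 1 E2F word. Mcm10, which helps to activate the loaded helicase, stood at 2.96 FPKM in PDGFRα+ DEX-T, 0.707 in PDGFRα+ DEX-B and 0.398 in PDGFRα+ PBS, and at 2.38 in CD137+ DEX-T, 4.68 in CD137+ DEX-B and 1.44 in CD137+ PBS. Both genes were under 1 FPKM in PDGFRα+ DEX-B and PDGFRα+ PBS. Cdt1 stood at 6.76 FPKM in PDGFRα+ DEX-T, 2.33 in PDGFRα+ DEX-B and 2.23 in PDGFRα+ PBS, and at 3.18 in CD137+ DEX-T, 7.98 in CD137+ DEX-B and 3.43 in CD137+ PBS. Geminin (Gmnn), the protein that binds Cdt1 and blocks relicensing, stood at 10.4 FPKM in PDGFRα+ DEX-T, 6.38 in PDGFRα+ DEX-B and 6.60 in PDGFRα+ PBS, and at 6.26 in CD137+ DEX-T, 11.0 in CD137+ DEX-B and 3.87 in CD137+ PBS. Unlike Cdt1, Gmnn was lowest in CD137+ PBS. The ratio of Cdt1 to Gmnn within a library was 0.652 in PDGFRα+ DEX-T, 0.366 in PDGFRα+ DEX-B and 0.338 in PDGFRα+ PBS, against 0.507 in CD137+ DEX-T, 0.724 in CD137+ DEX-B and 0.888 in CD137+ PBS. Gmnn transcript thus exceeded Cdt1 transcript in all 6 libraries, and by most in PDGFRα+ DEX-B and PDGFRα+ PBS. Orc6, a small subunit of the origin recognition complex, was the most abundant of the 6 genes and stood at 22.7 FPKM in PDGFRα+ DEX-T, 13.2 in PDGFRα+ DEX-B and 12.4 in PDGFRα+ PBS, and at 15.2 in CD137+ DEX-T, 25.1 in CD137+ DEX-B and 16.7 in CD137+ PBS. Orc1, its largest subunit, stood at 2.53 FPKM in PDGFRα+ DEX-T, 0.809 in PDGFRα+ DEX-B and 0.828 in PDGFRα+ PBS, and at 1.56 in CD137+ DEX-T, 3.45 in CD137+ DEX-B and 1.22 in CD137+ PBS. Orc6 was thus several times the level of Orc1 in every library and varied less.

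All 6 subunits of the MCM ring were called higher in PDGFRα+ DEX-T over PBS, and all 6 lower in PDGFRα+ DEX-B than in CD137+ DEX-B. In CD137+ DEX-T over PBS 0 of the 6 were called, with differences between 0.20 and 0.70. In CD137+ DEX-B over PBS, across tables, Mcm2, Mcm3, Mcm4 and Mcm5 were called higher. Mcm5 stood at 14.1 FPKM in PDGFRα+ DEX-T, 1.73 in PDGFRα+ DEX-B and 1.59 in PDGFRα+ PBS, and at 9.73 in CD137+ DEX-T, 19.1 in CD137+ DEX-B and 5.39 in CD137+ PBS. Its difference from PBS was 2.30 log2 units in PDGFRα+ DEX-T, 0.05 in PDGFRα+ DEX-B, 0.70 in CD137+ DEX-T and 1.52 in CD137+ DEX-B. It lies at chr8:75109569-75128439 on the plus strand. Mcm3, whose promoter window held separate E2F words on both strands, stood at 21.4 FPKM in PDGFRα+ DEX-T, 4.07 in PDGFRα+ DEX-B and 3.12 in PDGFRα+ PBS, and at 11.4 in CD137+ DEX-T, 25.4 in CD137+ DEX-B and 7.91 in CD137+ PBS. Mcm6, the most abundant subunit on average, stood at 21.7 FPKM in PDGFRα+ DEX-T, 7.26 in PDGFRα+ DEX-B and 6.53 in PDGFRα+ PBS, and at 18.2 in CD137+ DEX-T, 27.2 in CD137+ DEX-B and 12.1 in CD137+ PBS. Mcm7 had the smallest difference of the ring in the PDGFRα+ table and stood at 21.4 FPKM in PDGFRα+ DEX-T, 7.24 in PDGFRα+ DEX-B and 6.63 in PDGFRα+ PBS, and at 16.4 in CD137+ DEX-T, 24.01 in CD137+ DEX-B and 11.5 in CD137+ PBS. These 4 subunits shared the top of the order of libraries, with CD137+ DEX-B followed by PDGFRα+ DEX-T, CD137+ DEX-T and CD137+ PBS. Mcm2 stood at 14.4 FPKM in PDGFRα+ DEX-T and 2.85 in PDGFRα+ PBS, and Mcm4 at 17.1 FPKM in PDGFRα+ DEX-T and 4.76 in PDGFRα+ PBS. The subunits occupy the ring in equal numbers, and their transcripts were closer to each other where they were high. The most abundant subunit exceeded the least abundant 1.54-fold in PDGFRα+ DEX-T, 4.19-fold in PDGFRα+ DEX-B and 4.17-fold in PDGFRα+ PBS, and 2.25-fold in CD137+ DEX-T, 1.47-fold in CD137+ DEX-B and 2.24-fold in CD137+ PBS. In PDGFRα+ DEX-B and PDGFRα+ PBS Mcm5 was the lowest subunit, and Mcm6 or Mcm7 the highest.

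The genes that switch the ring on were less uniform. Cdc45, the helicase cofactor, stood at 6.38 FPKM in PDGFRα+ DEX-T, 1.13 in PDGFRα+ DEX-B and 1.35 in PDGFRα+ PBS, and at 4.17 in CD137+ DEX-T, 8.86 in CD137+ DEX-B and 3.23 in CD137+ PBS, and was called higher in PDGFRα+ DEX-T and in CD137+ DEX-B over PBS. The GINS subunit Gins1 stood at 3.34 FPKM in PDGFRα+ DEX-T, 0.847 in PDGFRα+ DEX-B and 0.478 in PDGFRα+ PBS, and at 3.05 in CD137+ DEX-T, 4.81 in CD137+ DEX-B and 1.98 in CD137+ PBS, and it was under 1 FPKM in PDGFRα+ DEX-B and PDGFRα+ PBS only. Gins4 was the exception: it stood at 14.6 FPKM in PDGFRα+ DEX-T, 13.1 in PDGFRα+ DEX-B and 10.8 in PDGFRα+ PBS, and at 10.8 in CD137+ DEX-T, 13.5 in CD137+ DEX-B and 9.58 in CD137+ PBS. It differed by 1.52-fold at most between libraries and was called in none of the 9 comparisons. Gins2 stood at 8.01 FPKM in PDGFRα+ DEX-T and 2.24 in PDGFRα+ PBS, and Gins3, the scarcest subunit in PDGFRα+ DEX-T and in the 3 CD137+ libraries, at 1.98 FPKM in PDGFRα+ DEX-T and 0.928 in PDGFRα+ PBS. Gins2 and Gins1 were called higher in PDGFRα+ DEX-T over PBS, and Gins3 and Gins4 were not. The highest GINS subunit exceeded the lowest 7.37-fold in PDGFRα+ DEX-T, 15.5-fold in PDGFRα+ DEX-B and 22.5-fold in PDGFRα+ PBS, and 7.40-fold in CD137+ DEX-T, 4.51-fold in CD137+ DEX-B and 5.66-fold in CD137+ PBS. GINS is a complex of 1 copy each of these subunits, and Gins4 transcript was in excess of the others in every library.

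**Figure D3:**
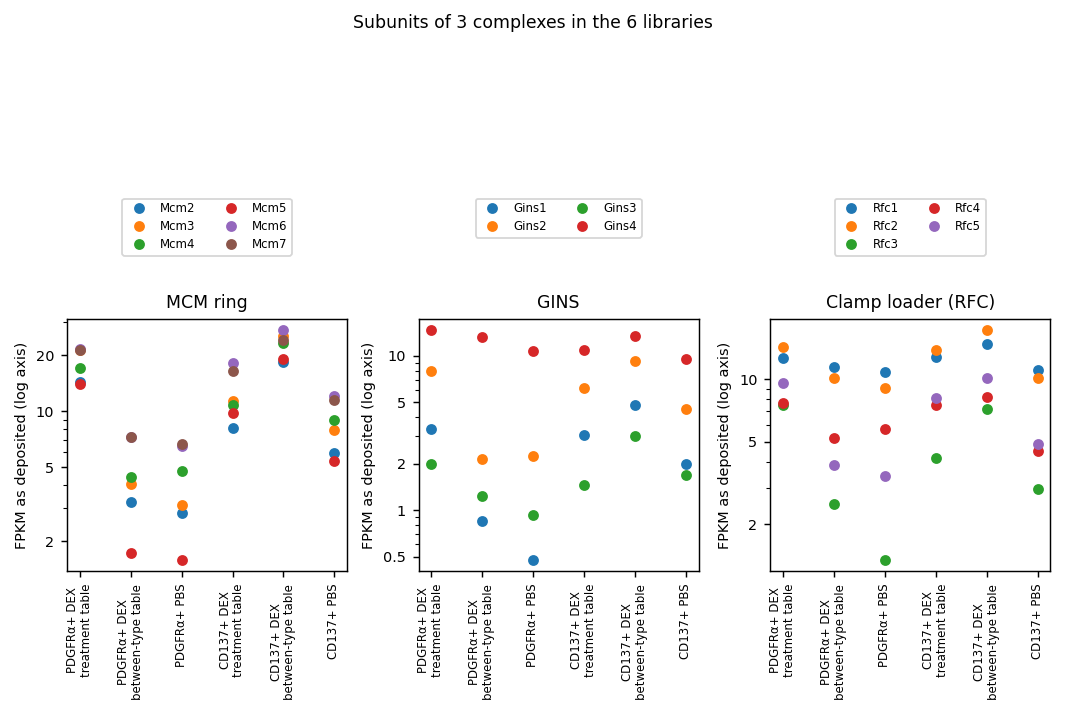
FPKM as deposited (log axis) of the subunits of the MCM ring, GINS and the clamp loader in each of the 6 libraries. The MCM points draw together in PDGFRα+ DEX-T and CD137+ DEX-B, where the highest subunit is 1.54-fold the lowest in PDGFRα+ DEX-T and 1.47-fold in CD137+ DEX-B, and spread to 4.17-fold in PDGFRα+ PBS, while Gins4 and Rfc1 keep nearly level across libraries.

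Among the 8 polymerase and primase genes, Pole and Prim1 were called higher in PDGFRα+ DEX-T over PBS, 0 in CD137+ DEX-T over PBS, and Pola1, Pola2, Pole and Prim1 lower in PDGFRα+ DEX-B than in CD137+ DEX-B. Pole, the catalytic subunit of the leading-strand polymerase epsilon, stood at 5.97 FPKM in PDGFRα+ DEX-T, 0.708 in PDGFRα+ DEX-B and 0.684 in PDGFRα+ PBS, and at 3.42 in CD137+ DEX-T, 8.99 in CD137+ DEX-B and 2.65 in CD137+ PBS. Its difference from PBS was 1.81 log2 units in PDGFRα+ DEX-T, 0.22 in CD137+ DEX-T and 1.32 in CD137+ DEX-B. It lies at chr5:110286306-110337474 on the plus strand. Its levels spanned 13.1-fold, next to Cdc6 the widest relative range of the list. Pold2, the accessory subunit of polymerase delta, varied far less and stood at 7.34 FPKM in PDGFRα+ DEX-T, 8.64 in PDGFRα+ DEX-B and 7.91 in PDGFRα+ PBS, and at 8.58 in CD137+ DEX-T, 10.5 in CD137+ DEX-B and 7.04 in CD137+ PBS. Its difference in PDGFRα+ DEX-T over PBS, -0.34, was the lowest of the 45 genes, its window held no E2F word, and its levels spanned 1.496-fold. The catalytic subunit of polymerase delta, Pold1, stood at 5.89 FPKM in PDGFRα+ DEX-T, 4.19 in PDGFRα+ DEX-B and 4.01 in PDGFRα+ PBS, and at 5.15 in CD137+ DEX-T, 8.79 in CD137+ DEX-B and 3.48 in CD137+ PBS. The ratio of Pole to Pold1 was 1.01 in PDGFRα+ DEX-T, 0.169 in PDGFRα+ DEX-B and 0.171 in PDGFRα+ PBS, and 0.663 in CD137+ DEX-T, 1.02 in CD137+ DEX-B and 0.761 in CD137+ PBS. Transcripts of the catalytic subunits of the polymerases of the leading and lagging strand were thus about equal in the libraries with most replication mRNA, and Pole was far below Pold1 in PDGFRα+ DEX-B and PDGFRα+ PBS. Pole2, an accessory subunit of polymerase epsilon, did not share that range and stood at 4.06 FPKM in PDGFRα+ DEX-T and 2.09 in PDGFRα+ PBS. Of the primase genes, the catalytic subunit Prim1 stood at 8.59 FPKM in PDGFRα+ DEX-T, 2.23 in PDGFRα+ DEX-B and 2.10 in PDGFRα+ PBS, and at 5.52 in CD137+ DEX-T, 12.9 in CD137+ DEX-B and 4.17 in CD137+ PBS. The regulatory subunit Prim2 stood at 8.96 FPKM in PDGFRα+ DEX-T and 4.75 in PDGFRα+ PBS. Pola1, the catalytic subunit of polymerase alpha, stood at 5.44 FPKM in PDGFRα+ DEX-T and 1.94 in PDGFRα+ PBS, and its partner Pola2 at 7.87 FPKM in PDGFRα+ DEX-T and 3.65 in PDGFRα+ PBS. The 4 transcripts of the polymerase alpha and primase complex stayed within 1.65-fold of each other in PDGFRα+ DEX-T and within 2.64-fold in PDGFRα+ DEX-B.

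Pcna, the sliding clamp, was among the most abundant of the 45 transcripts and stood at 69.6 FPKM in PDGFRα+ DEX-T, 21.1 in PDGFRα+ DEX-B and 19.2 in PDGFRα+ PBS, and at 49.3 in CD137+ DEX-T, 76.5 in CD137+ DEX-B and 36.3 in CD137+ PBS. Its difference from PBS was 1.56 log2 units in PDGFRα+ DEX-T, 0.10 in PDGFRα+ DEX-B, 0.38 in CD137+ DEX-T and 0.92 in CD137+ DEX-B. It lies at chr2:132249162-132253314 on the minus strand. A pseudogene, Pcna-ps2, is listed in all 3 tables, so part of the reads of either may be split between them. The clamp loader subunit Rfc3, with E2F words just before and at its start site, stood at 7.52 FPKM in PDGFRα+ DEX-T, 2.51 in PDGFRα+ DEX-B and 1.35 in PDGFRα+ PBS, and at 4.16 in CD137+ DEX-T, 7.196 in CD137+ DEX-B and 2.95 in CD137+ PBS. Rfc1, the large subunit of the loader, stood at 12.7 FPKM in PDGFRα+ DEX-T, 11.5 in PDGFRα+ DEX-B and 10.8 in PDGFRα+ PBS, and at 12.7 in CD137+ DEX-T, 14.7 in CD137+ DEX-B and 11.0 in CD137+ PBS. The loader was thus uneven: Rfc1 had the narrowest range of all 45 genes, 1.36-fold, while Rfc3 had a difference of 1.62 in PDGFRα+ DEX-T over PBS, the highest of the loader. Rfc5 stood at 9.61 FPKM in PDGFRα+ DEX-T and 3.42 in PDGFRα+ PBS and was called higher in PDGFRα+ DEX-T over PBS. Rfc2 stood at 14.3 FPKM in PDGFRα+ DEX-T and 9.06 in PDGFRα+ PBS and Rfc4 at 7.65 FPKM in PDGFRα+ DEX-T and 5.78 in PDGFRα+ PBS, and neither was called in any of the comparisons with PBS. The highest loader subunit exceeded the lowest 1.90-fold in PDGFRα+ DEX-T, 4.57-fold in PDGFRα+ DEX-B and 8.01-fold in PDGFRα+ PBS, and 3.31-fold in CD137+ DEX-T, 2.39-fold in CD137+ DEX-B and 3.73-fold in CD137+ PBS.

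RPA, the trimer that coats single-stranded DNA, had 1 called subunit in PDGFRα+ DEX-T over PBS. Rpa1, which carries most of the DNA-binding surface, stood at 42.4 FPKM in PDGFRα+ DEX-T, 11.5 in PDGFRα+ DEX-B and 11.8 in PDGFRα+ PBS, and at 27.0 in CD137+ DEX-T, 40.4 in CD137+ DEX-B and 18.8 in CD137+ PBS. Its difference in PDGFRα+ DEX-T over PBS was 1.52. Rpa3, the smallest subunit, stood at 11.7 FPKM in PDGFRα+ DEX-T, 14.4 in PDGFRα+ DEX-B and 10.6 in PDGFRα+ PBS, and at 13.8 in CD137+ DEX-T, 20.4 in CD137+ DEX-B and 9.14 in CD137+ PBS, and was higher in PDGFRα+ DEX-B than in PDGFRα+ DEX-T. Rpa2, the subunit phosphorylated during replication stress, stood at 9.58 FPKM in PDGFRα+ DEX-T and 3.67 in PDGFRα+ PBS. In contrast to MCM, the spread between RPA subunits was not narrowest in the libraries with most replication mRNA. It was 4.43-fold in PDGFRα+ DEX-T, 3.27-fold in PDGFRα+ DEX-B and 3.21-fold in PDGFRα+ PBS, and 4.66-fold in CD137+ DEX-T, 3.77-fold in CD137+ DEX-B and 3.20-fold in CD137+ PBS.

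Okazaki fragments are trimmed by the flap endonuclease Fen1 and sealed by DNA ligase I (Lig1). Fen1 stood at 11.1 FPKM in PDGFRα+ DEX-T, 1.57 in PDGFRα+ DEX-B and 1.08 in PDGFRα+ PBS, and at 4.73 in CD137+ DEX-T, 12.8 in CD137+ DEX-B and 4.73 in CD137+ PBS. Its difference from PBS was 2.30 log2 units in PDGFRα+ DEX-T, 0.28 in PDGFRα+ DEX-B, -0.05 in CD137+ DEX-T and 1.13 in CD137+ DEX-B. The gene lies at chr19:10199132-10204169 on the minus strand. The value in PDGFRα+ DEX-T was, with that of Mcm5, the highest of all 45 genes, whereas in CD137+ DEX-T Fen1 lay at the PBS level. Lig1 stood at 9.15 FPKM in PDGFRα+ DEX-T, 3.44 in PDGFRα+ DEX-B and 3.47 in PDGFRα+ PBS, and at 6.97 in CD137+ DEX-T, 12.4 in CD137+ DEX-B and 4.82 in CD137+ PBS, and was called higher in CD137+ DEX-B but not in PDGFRα+ DEX-T over PBS. Both were called lower in PDGFRα+ DEX-B than in CD137+ DEX-B.

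The subunits of ribonucleotide reductase, with Pcna, were the most abundant of the 45 transcripts. Rrm2, the small subunit of ribonucleotide reductase, whose amount limits the enzyme in cycling cells, stood at 71.9 FPKM in PDGFRα+ DEX-T, 34.4 in PDGFRα+ DEX-B and 36.2 in PDGFRα+ PBS, and at 27.0 in CD137+ DEX-T, 109 in CD137+ DEX-B and 19.8 in CD137+ PBS. Its difference from PBS was 0.73 in PDGFRα+ DEX-T but 2.27 in CD137+ DEX-B, the highest of the 45 genes in that comparison. Rrm1, the large subunit, stood at 71.2 FPKM in PDGFRα+ DEX-T, 43.8 in PDGFRα+ DEX-B and 41.7 in PDGFRα+ PBS, and at 44.0 in CD137+ DEX-T, 66.4 in CD137+ DEX-B and 34.0 in CD137+ PBS. The ratio of Rrm2 to Rrm1 was 1.01 in PDGFRα+ DEX-T, 0.785 in PDGFRα+ DEX-B and 0.869 in PDGFRα+ PBS, and 0.614 in CD137+ DEX-T, 1.64 in CD137+ DEX-B and 0.582 in CD137+ PBS. Rrm2 transcript thus exceeded Rrm1 clearly in CD137+ DEX-B alone among the 6 libraries. Thymidylate synthase (Tyms), which makes thymidylate, stood at 21.0 FPKM in PDGFRα+ DEX-T, 5.07 in PDGFRα+ DEX-B and 5.14 in PDGFRα+ PBS, and at 9.89 in CD137+ DEX-T, 23.2 in CD137+ DEX-B and 6.30 in CD137+ PBS. It was called higher in PDGFRα+ DEX-T and in CD137+ DEX-B over PBS. Thymidine kinase Tk1, of the salvage pathway, stood at 15.9 FPKM in PDGFRα+ DEX-T, 4.22 in PDGFRα+ DEX-B and 4.82 in PDGFRα+ PBS, and at 13.8 in CD137+ DEX-T, 24.98 in CD137+ DEX-B and 11.8 in CD137+ PBS. Rrm2 stood higher in PDGFRα+ PBS than in CD137+ PBS, and Tk1 lower.

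Chromatin is rebuilt behind the fork by the assembly factor CAF-1, of which Chaf1a and Chaf1b are subunits. Chaf1a stood at 8.13 FPKM in PDGFRα+ DEX-T, 1.79 in PDGFRα+ DEX-B and 1.74 in PDGFRα+ PBS, and at 5.36 in CD137+ DEX-T, 9.67 in CD137+ DEX-B and 4.08 in CD137+ PBS. Chaf1b stood at 7.37 FPKM in PDGFRα+ DEX-T, 1.98 in PDGFRα+ DEX-B and 2.15 in PDGFRα+ PBS, and at 4.06 in CD137+ DEX-T, 8.19 in CD137+ DEX-B and 2.32 in CD137+ PBS. Both were called higher in PDGFRα+ DEX-T over PBS and lower in PDGFRα+ DEX-B than in CD137+ DEX-B. Of the S-phase regulators, cyclin E1 (Ccne1), which with Cdk2 fires origins, stood at 12.3 FPKM in PDGFRα+ DEX-T, 3.74 in PDGFRα+ DEX-B and 3.44 in PDGFRα+ PBS, and at 9.16 in CD137+ DEX-T, 14.3 in CD137+ DEX-B and 8.15 in CD137+ PBS. Cyclin E2 (Ccne2) stood at 9.25 FPKM in PDGFRα+ DEX-T, 2.03 in PDGFRα+ DEX-B and 2.72 in PDGFRα+ PBS, and at 5.41 in CD137+ DEX-T, 14.05 in CD137+ DEX-B and 4.58 in CD137+ PBS. Both cyclins were called higher in PDGFRα+ DEX-T over PBS and lower in PDGFRα+ DEX-B than in CD137+ DEX-B. E2f1, the transcription factor that drives many of these genes and is itself an E2F target, differed little and stood at 8.90 FPKM in PDGFRα+ DEX-T, 6.91 in PDGFRα+ DEX-B and 7.03 in PDGFRα+ PBS, and at 9.70 in CD137+ DEX-T, 12.1 in CD137+ DEX-B and 8.13 in CD137+ PBS. It was called in none of the comparisons, and its levels spanned 1.75-fold.

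The PBS libraries of both cell types, set across tables, differed less. PDGFRα+ PBS had 3 replication genes called lower and 0 higher than CD137+ PBS of 44 measured, where 5.39% of all genes were called lower and 8.48% higher, and the median was -0.33. The 3 genes were Fen1 (-1.33), Mcm5 (-1.17) and Tk1 (just past the 2-fold line). Rrm2 lay at the other end, at 0.98, just under the 2-fold line. Between the DEX-T libraries of the cell types, PDGFRα+ over CD137+, 2 of 45 were called higher, Rrm2 (1.30) and Fen1 (just past the 2-fold line), where 6.66% of all genes were called higher and 7.41% lower. The median of that comparison was 0.39, against -1.39 between the DEX-B libraries. The sign of the median difference between the cell types thus changed with the choice between libraries of the same label. The 2 genes called between the DEX-T libraries were a smaller share than the 6.66% of all genes.

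By the authors' deposited table for PDGFRα+ cells, 21 of the 45 genes had a q-value under 0.05 with a higher level in DEX and 0 with a lower one, where 9.37% and 5.63% of all genes did, and 44 had a log2 ratio above 0. In the authors' deposited table for CD137+ cells 1 gene, Mcm5, had a q-value under 0.05, where 1.8% of all genes were higher and 1.91% lower at that threshold. Between the cell types, 24 of the 45 were lower and 0 higher in PDGFRα+ cells at that threshold by the authors' deposited table, where 6.51% of all genes were lower and 6.72% higher. These q-values come from 1 library a side and carry no replicate error.

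Other genes of the pathway were taken by list. Of 44 measured further replication factors 5 were called higher and 2 lower in PDGFRα+ DEX-T over PBS, with a median of 0.47, counts that lie near or under the 9.38% higher and 11.7% lower of all genes. Dbf4, the activator of the Cdc7 kinase that fires origins, was their highest difference and stood at 19.8 FPKM in PDGFRα+ DEX-T, 3.26 in PDGFRα+ DEX-B and 4.44 in PDGFRα+ PBS, and at 11.3 in CD137+ DEX-T, 23.8 in CD137+ DEX-B and 8.31 in CD137+ PBS. Samhd1, which breaks down deoxynucleotides outside S phase, was their lowest and stood at 38.6 FPKM in PDGFRα+ DEX-T, 80.5 in PDGFRα+ DEX-B and 84.8 in PDGFRα+ PBS, and at 56.4 in CD137+ DEX-T, 30.3 in CD137+ DEX-B and 61.3 in CD137+ PBS. It ran opposite to the deoxynucleotide synthesis genes, with its lowest values in CD137+ DEX-B and PDGFRα+ DEX-T. Of the 45 further factors, 12 were called lower and 3 higher in PDGFRα+ DEX-B than in CD137+ DEX-B, where 7.31% and 12.6% of all genes were. In CD137+ DEX-B over PBS 10 were called higher and 1 lower, where 4.76% and 7.28% of all genes were. Of 20 measured genes of the E2F and Rb axis 5 were called higher and 0 lower in PDGFRα+ DEX-T over PBS (median 0.48), against the same 9.38% and 11.7% of all genes. Between the DEX-B libraries 6 of the 20 were called lower in PDGFRα+ cells and 0 higher. The G1 cyclin Ccnd1 stood at 43.4 FPKM in PDGFRα+ DEX-T, 9.95 in PDGFRα+ DEX-B and 9.07 in PDGFRα+ PBS, and at 25.1 in CD137+ DEX-T, 67.9 in CD137+ DEX-B and 22.6 in CD137+ PBS. The repressor E2f6 stood at 18.1 FPKM in PDGFRα+ DEX-T, 22.5 in PDGFRα+ DEX-B and 23.5 in PDGFRα+ PBS, and at 9.12 in CD137+ DEX-T, 15.02 in CD137+ DEX-B and 9.68 in CD137+ PBS. Of 18 checkpoint and fork repair genes 8 were called lower and 0 higher in PDGFRα+ DEX-B than in CD137+ DEX-B (median -0.78). In PDGFRα+ DEX-T over PBS 4 of the 18 were called higher and 0 lower (median 0.55), against the same 9.38% and 11.7% of all genes. The checkpoint kinase Atr had the lowest difference of that list and stood at 4.30 FPKM in PDGFRα+ DEX-T, 5.77 in PDGFRα+ DEX-B and 7.45 in PDGFRα+ PBS, and at 4.23 in CD137+ DEX-T, 5.23 in CD137+ DEX-B and 3.21 in CD137+ PBS.

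Of 25 mitosis genes 22 were called higher and 0 lower in PDGFRα+ DEX-T over PBS (median 1.49), where 9.38% and 11.7% of all genes were. In CD137+ DEX-T over PBS 0 were called (median 0.60), where 0.406% of all genes were called higher and 0.658% lower. In PDGFRα+ DEX-B 24 were called lower than in CD137+ DEX-B (median -2.12), where 7.31% of all genes were. Cdc20, the activator of the anaphase-promoting complex, stood at 23.9 FPKM in PDGFRα+ DEX-T, 2.66 in PDGFRα+ DEX-B and 2.94 in PDGFRα+ PBS, and at 21.4 in CD137+ DEX-T, 33.5 in CD137+ DEX-B and 10.7 in CD137+ PBS. Cenpf, a kinetochore protein, stood at 2.80 FPKM in PDGFRα+ DEX-T, 0.892 in PDGFRα+ DEX-B and 0.853 in PDGFRα+ PBS, and at 3.81 in CD137+ DEX-T, 5.04 in CD137+ DEX-B and 2.06 in CD137+ PBS. Cdc20 was highest in CD137+ DEX-B and PDGFRα+ DEX-T like most replication genes, while Cenpf was higher in CD137+ DEX-T than in PDGFRα+ DEX-T. Of 7 CDK inhibitors 0 were called higher and 3 lower in PDGFRα+ DEX-T over PBS (median -0.88), where 9.38% and 11.7% of all genes were. In PDGFRα+ DEX-B 3 were called higher and 0 lower than in CD137+ DEX-B (median 0.71), where 12.6% and 7.31% of all genes were. Cdkn1c stood at 6.08 FPKM in PDGFRα+ DEX-T, 32.2 in PDGFRα+ DEX-B and 29.4 in PDGFRα+ PBS, and at 22.0 in CD137+ DEX-T, 7.84 in CD137+ DEX-B and 23.3 in CD137+ PBS. Cdkn1a stood at 185 FPKM in PDGFRα+ DEX-T, 86.5 in PDGFRα+ DEX-B and 96.9 in PDGFRα+ PBS, and at 145 in CD137+ DEX-T, 175 in CD137+ DEX-B and 130.3 in CD137+ PBS. Cdkn1c was thus lowest in the libraries with most replication mRNA, and Cdkn1a highest there.

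**Figure D4:**
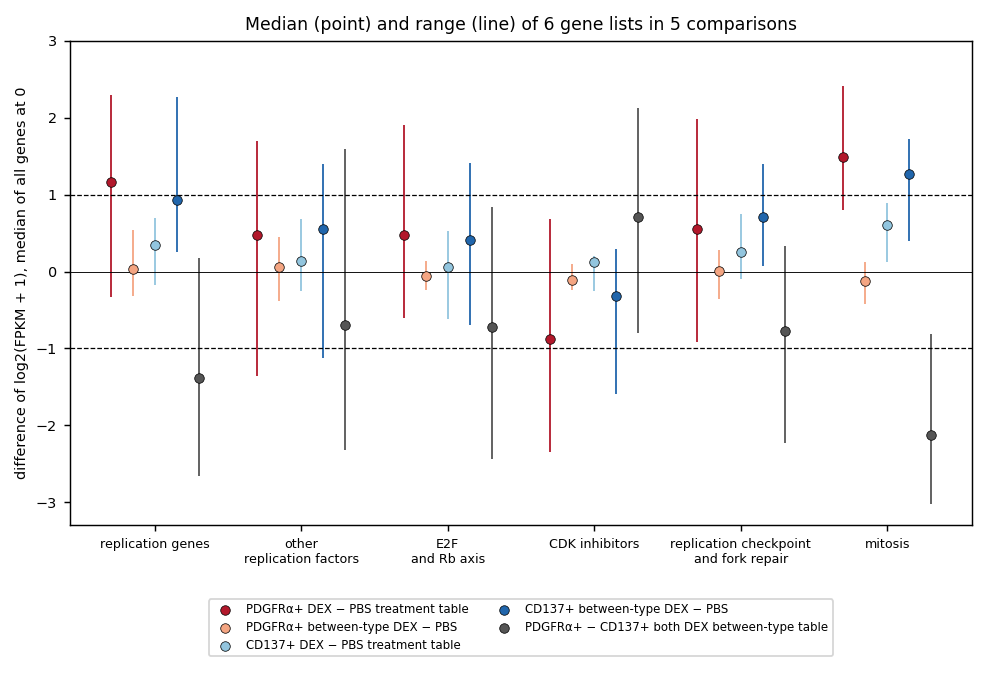
Median (point) and range (line) of the difference of log2(FPKM + 1) for the 45 replication genes and 5 further gene lists in 5 comparisons, with the median of all genes at 0 and dashed lines at 2-fold. In PDGFRα+ DEX-T over PBS the medians are 1.17 for replication and 1.49 for mitosis genes, against -0.88 for CDK inhibitors, and in PDGFRα+ DEX-B over PBS all medians lie near 0.

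Markers of other cell types and of differentiation moved with the same libraries. The summed FPKM of 10 adipocyte markers was 210.0 FPKM in PDGFRα+ DEX-T, 1120.4 in PDGFRα+ DEX-B and 1038 in PDGFRα+ PBS, and 2603 in CD137+ DEX-T, 333 in CD137+ DEX-B and 3400.0 in CD137+ PBS. Cfd, the adipokine adipsin, was listed at 0 in PDGFRα+ DEX-T and CD137+ DEX-B. The sum of 10 progenitor and fibroblast markers was 3409.5 FPKM in PDGFRα+ DEX-T, 14589 in PDGFRα+ DEX-B and 15736 in PDGFRα+ PBS, and 10317 in CD137+ DEX-T, 4320.0 in CD137+ DEX-B and 10760.5 in CD137+ PBS. Both sums were lowest in PDGFRα+ DEX-T and CD137+ DEX-B, the libraries with most replication mRNA. Of the adipocyte markers 8 of 9 measured were called lower in PDGFRα+ DEX-T over PBS, where 11.7% of all genes were. In PDGFRα+ DEX-B 7 of 9 were called higher than in CD137+ DEX-B, where 12.6% of all genes were. The sum of 8 mural markers was 3272 FPKM in PDGFRα+ DEX-T, 1234 in PDGFRα+ DEX-B and 1299 in PDGFRα+ PBS, and 270.5 in CD137+ DEX-T, 1032 in CD137+ DEX-B and 273 in CD137+ PBS. Acta2 alone made up 1808 FPKM of the sum in PDGFRα+ DEX-T. Over PBS there Acta2, Cspg4 and Mcam were called higher and 0 lower, where 9.38% and 11.7% of all genes were. The median of the 8 was 0.68, and 3 of them lay below 0. The sum of 8 mesothelial markers was 459 FPKM in PDGFRα+ DEX-T, 126 in PDGFRα+ DEX-B and 114 in PDGFRα+ PBS. It was 6.92 in CD137+ DEX-T, 37.9 in CD137+ DEX-B and 10.3 in CD137+ PBS. Only 3 of these markers, the keratins Krt8, Krt18 and Krt19, are listed in the CD137+ treatment table, so 6.92 and 10.3 sum these alone. In PDGFRα+ DEX-T over PBS the 3 keratins were called higher, Msln and Wt1 were called lower, and the median of the 8 was -0.28. Endothelial markers summed to 10.9 to 30.8 FPKM, macrophage markers, of which Adgre1, Fcgr1, Itgam and Mrc1 are not listed in the tables, to 13.5 to 35.4 FPKM, and of the lymphocyte markers only Ptprc was listed, at 0.505 FPKM in PDGFRα+ DEX-T. The mitochondrially encoded share of FPKM was 7.80% in PDGFRα+ DEX-T, 3.92% in PDGFRα+ DEX-B and 3.63% in PDGFRα+ PBS, and 8.02% to 8.62% in the CD137+ libraries. The part of these in the replication result was not tested.

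The replication and mitosis genes, which both had medians past 2-fold in PDGFRα+ DEX-T over PBS, differed in promoter words. The CHR element TTTGAA, known from genes expressed late in the cycle, was in 13.9% of replication genes, 71.4% of 21 mitosis genes and 14.4% of the other listed genes. The CCAAT box CCAAT was in 61.1% of replication genes, 85.7% of mitosis genes and 42.6% of the other listed genes. An E2F word was in 4.76% of the mitosis genes, in 21.6% of 37 further replication factors and in 46.7% of 15 genes of the E2F and Rb axis. The Sp1 box GGGCGG was in 77.8% of replication genes and 66.9% of the other listed genes. GGGCGG can share bases with the end of the E2F word TTTCCCGC, and E2F words can overlap each other.

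**Figure D5:**
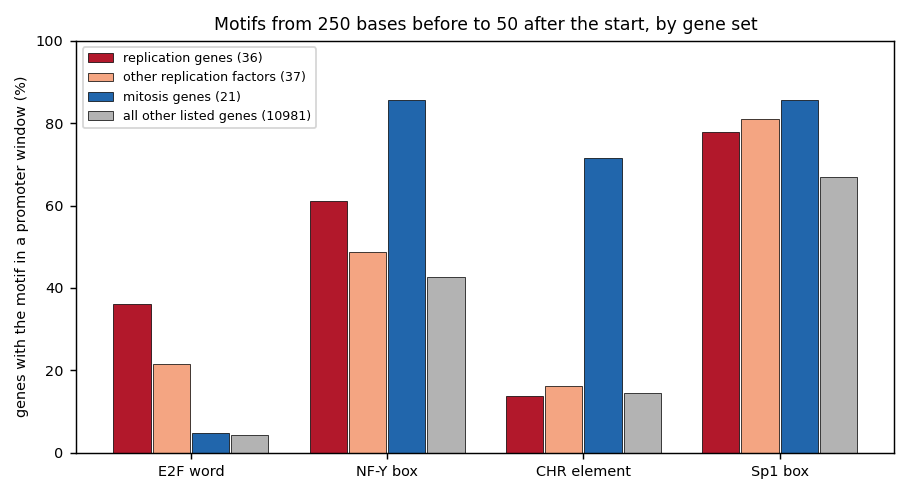
Share of genes (%) with each motif in a promoter window, for 36 replication genes, 37 further replication factors, 21 mitosis genes and 10981 other listed genes, where the NF-Y box is CCAAT. The E2F word is in 36.1% of replication and 4.76% of mitosis genes, and the CHR element in 13.9% of replication and 71.4% of mitosis genes.

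The exons of 15 of the 45 genes overlap another protein-coding or long RNA gene, 14 of them on the opposite strand: Mcm7, Cdc45, Gins2, Orc1, Orc6, Rfc2, Rfc4, Rfc5, Pole, Fen1, Lig1, Tk1, Chaf1a and Ccne2. Whether the authors' counting used strand is not given in the sources used here, so values of these 14 genes may hold reads of their partners. Without them 16 of 31 genes were called higher in PDGFRα+ DEX-T over PBS, where 9.38% of all genes were, and the median was 1.02. Cdt1 and Gins2 share 1 deposited locus of 4435366 bases on chromosome 8.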

How the data were processed

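Per the labels' protocols, total RNA was extracted with Trizol and made into TruSeq libraries. The submitters' processing notes name Cufflinks and Cuffdiff, and mm10 as the mouse build. The aligner, tool versions, annotation and strand setting were not given in the sources used here. In all, the authors deposited 3 tables of 2 FPKM columns each, and beside them a log2 ratio, a p-value and a q-value, per the file headers. FPKM depends on the total of its library, and the number of reads behind a value is unknown.

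The 6 columns were kept as 6 libraries and joined across tables by gene identifier. Differences were taken as log2(FPKM + 1), first library minus second, and the median difference of genes reaching 1 FPKM on both sides was subtracted. A gene was called at 2-fold if it reached 1 FPKM in the higher library, and genes under 1 FPKM in both libraries were not measured. That median was 0.24 log2 units in PDGFRα+ DEX-T over PBS, 0.05 in CD137+ DEX-T over PBS and -0.22 in PDGFRα+ DEX-B over CD137+ DEX-B. The labels give 1 sample per group, so no test was run, and the deposited q-values are quoted as the authors' own. Where a column was at 0 the deposited ratio was a placeholder.

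The 45 genes, the gene lists and the settings were chosen with earlier results of these data known. All 45 genes are named, those with the highest and lowest difference and the highest mean level per role in all 6 libraries, and at most 2 genes of each other list. Gene loci come from GENCODE M21 and promoter windows from RefSeq on GRCm38.p6. Alternatives were other pseudocounts, minimum levels, fold thresholds and scalings, the authors' ratio, and the other column of the same label. The comparison of MCM protein sequences was not analysed here. The scripts were tested on simulated data and ran under Python 3.11.15, numpy 2.4.6, pandas 2.3.3 and matplotlib 3.10.9.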

Additional observations from a re-analysis of the deposited data

Results flagged for a closer look

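For 8 of the 45 replication genes the difference between DEX-T and PBS had opposite signs in PDGFRα+ and CD137+ cells, each in its own table. Of all measured genes 50.55% lay above 0 in PDGFRα+ cells and 49.9% in CD137+ cells. The share of all genes with opposite signs was not computed, so the count of 8 is not shown to be unusual. With 1 library per group the gap between the cell types was not tested, and several of the values lie close to 0. In 5 genes PDGFRα+ cells lay above 0 and CD137+ cells below it. Fen1 was at 2.30 in PDGFRα+ and -0.05 in CD137+ cells, a gap of 2.35 log2 units. Cdt1 was at 1.02 in PDGFRα+ and -0.14 in CD137+ cells (gap 1.16), and Rpa2 at 0.94 in PDGFRα+ and -0.07 in CD137+ cells (gap 1.01). Orc6 was at 0.58 in PDGFRα+ and -0.18 in CD137+ cells (gap 0.76), and Gins3 at 0.39 in PDGFRα+ and -0.18 in CD137+ cells (gap 0.57). In the other 3 genes the signs were turned round. Rpa3 was at -0.10 in PDGFRα+ and 0.50 in CD137+ cells (gap -0.60), Pold2 at -0.34 in PDGFRα+ and 0.20 in CD137+ cells (gap -0.54), and Rfc1 at -0.03 in PDGFRα+ and 0.14 in CD137+ cells (gap -0.17). Without centring, Rfc1 and Rpa3 lay above 0 in PDGFRα+ cells too. The signs also depended on the library: with DEX-B in place of DEX-T, across tables, all 8 genes lay above 0 in both cell types. Fen1 was then at 0.28 in PDGFRα+ and 1.13 in CD137+ cells, Cdt1 at 0.01 in PDGFRα+ and 0.89 in CD137+ cells. Rpa2 was at 0.18 in PDGFRα+ and 0.64 in CD137+ cells.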

How the results depend on the processing

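The labels give 1 sample per group, and whether columns of 1 label are replicates is not stated, so no replicate error was derived, and with unknown depth no counting error. Values near 1 FPKM are the least certain. No paired analysis was possible because the results come from no test. The other column of the same label gave the largest shifts: 0 instead of 25 genes higher in PDGFRα+ DEX over PBS (median 0.033 instead of 1.17), 18 instead of 0 higher in CD137+ DEX over PBS (0.94 instead of 0.34), and 2 higher and 0 lower instead of 0 and 29 in PDGFRα+ against CD137+ DEX, where the median turned to 0.39 from -1.39. Differences as deposited, without centring, gave medians of 1.41 in PDGFRα+ DEX-T over PBS, -1.60 between the DEX-B libraries and 1.07, with 29 genes higher, in CD137+ DEX-B over PBS. The authors' ratio, with its own median over genes reaching 1 FPKM on both sides set to 0, gave 1.41 and -1.61 in the first pair. A pseudocount of 0.1 FPKM gave medians of 1.40, -1.58 and 1.10 in that order. A pseudocount of 5 FPKM gave 0.59 with 10 genes higher (4.24% of all genes), -0.68 with 16 lower (3.49%) and 0.64 with 5 higher (1.99%), and 0.17 in CD137+ DEX-T over PBS. A minimum of 10 FPKM left 12 genes higher (median 1.33) in PDGFRα+ DEX-T over PBS, against 11.0% of all genes, and 16 lower between the DEX-B libraries, against 8.88%. A 4-fold threshold left 3, 6 and 1 genes in the same order, against 1.42%, 1.06% and 0.604% of all genes. A 1.5-fold threshold gave 38 higher in CD137+ DEX-B over PBS, against 12.2% of all genes, and 3 in CD137+ DEX-T over PBS, against 2.45%. Without the 14 genes with an antisense overlap, left out after the data were seen, 16 were higher (median 1.02) and 19 lower (median -1.27). Single genes changed sign in 3 cases, all without centring: Rfc1 to 0.21 and Rpa3 to 0.14 in PDGFRα+ DEX-T over PBS, and Gins4 to -0.04 between the DEX-B libraries.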
